A study of Mus musculus with 2 samples.

Results

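Mab21l1 and Mab21l2 are short, closely related genes that each lie inside a much longer gene on mouse chromosome 3: Mab21l1 within Nbea, and Mab21l2 within Lrba. The 4 genes were chosen by measured values, the number and read counts of regions called from a Brg1 ChIP in and around them. They are 4 of 21887 protein-coding genes placed on the chromosomes in the annotation used. The regions, called islands, were counted for a gene when any base lay in it or within 5 kb of it. This gave 20 of the 5727 islands of the list, 5 for Nbea and 15 for Lrba, and these include the islands of the inner genes.

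The islands come from chromatin of medulloblastoma cells of mice carrying CAG-CreER and Rosa26-SmoM2. Medulloblastoma is a tumour of the cerebellum; SmoM2 is an activated form of Smoothened, the transducer of the Hedgehog signal, CAG is a promoter active in most tissues, and CreER is a Cre recombinase that tamoxifen activates. The labels call the tumours spontaneous. Chromatin was immunoprecipitated with the J1 antibody, which the labels give as recognising both Brg1 and its paralogue Brm. Brg1 is the ATPase of the BAF (SWI/SNF) chromatin remodelling complex. An island can thus come from either protein, and Brg1 island is used here after the name of the library. There was 1 ChIP library and 1 input library of the same genotype and tissue. The input is not analysed here, and the number of animals behind the ChIP library is not given in the sources used here. Spread between tumours is therefore unknown, no test was made, and intervals on reads are exact Poisson 95% intervals that cover counting error only. Islands do not measure RNA, so the cell types of the tumour were not checked against markers.

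Mab21l1 and Mab21l2 encode proteins of the nucleotidyltransferase-fold family that also holds the DNA sensor cGAS, and are known for their roles in eye and nervous system development. Nbea encodes neurobeachin, a large protein with a BEACH domain that takes part in trafficking of membrane proteins at synapses. Its paralogue Lrba is best known from immune cells, where it keeps the receptor CTLA4 from lysosomal degradation. Regulatory elements of a developmental gene can lie in the introns of a longer gene around it, so a Brg1 island inside Nbea or Lrba cannot be assigned to host or inner gene from its position alone.

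The loci have the same layout. Nbea runs from 55625195 to 56183748 (558.6 kb, minus strand; positions are read as mm10, and a conversion of the islands from mm9 was not settled) and Mab21l1 from 55782510 to 55785287 (2778 bp). Lrba runs from 86223456 to 86782694 (559.2 kb, plus strand) and Mab21l2, on the opposite strand, from 86546050 to 86548283 (2234 bp). Going in the direction of host transcription, Mab21l1 began 398 kb after the Nbea start site, 71.7% of the way along, and Mab21l2 321 kb after the Lrba start site, 57.8% of the way. A doublecortin-like kinase gene lies past the far end of each host, with its own 3′ end facing the host: Dclk1 86.1 kb from Nbea and Dclk2 3.46 kb from Lrba.

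Promoter windows, 250 bases before to 50 after the start site, were at hand for Mab21l2, Nbea and Lrba (RefSeq, GRCm38.p6), which is 3 of the 4 genes. They are printed because an island covered the Mab21l2 promoter but neither host promoter. Whether an island covered the Mab21l1 promoter is unknown. Each reads 5′ to 3′ in the direction of its gene, with CpG dinucleotides in capitals. The windows are chr3:86548234-86548533 on the minus strand for Mab21l2, chr3:56183652-56183951 on the minus strand for Nbea and chr3:86224440-86224739 on the plus strand for Lrba.
Mab21l2: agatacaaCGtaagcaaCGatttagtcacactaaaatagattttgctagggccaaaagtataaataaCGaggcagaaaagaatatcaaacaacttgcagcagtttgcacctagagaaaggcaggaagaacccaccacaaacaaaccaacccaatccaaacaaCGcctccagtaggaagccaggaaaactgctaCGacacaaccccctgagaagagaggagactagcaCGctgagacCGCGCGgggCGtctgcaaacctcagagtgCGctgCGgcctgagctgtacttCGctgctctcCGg
Nbea: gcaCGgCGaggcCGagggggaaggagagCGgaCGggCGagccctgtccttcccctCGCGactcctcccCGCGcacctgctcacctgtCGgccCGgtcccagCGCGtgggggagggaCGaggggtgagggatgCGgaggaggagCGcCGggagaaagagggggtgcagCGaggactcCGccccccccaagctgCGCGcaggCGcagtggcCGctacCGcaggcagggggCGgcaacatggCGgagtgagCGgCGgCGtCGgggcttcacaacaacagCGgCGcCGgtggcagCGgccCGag
Lrba: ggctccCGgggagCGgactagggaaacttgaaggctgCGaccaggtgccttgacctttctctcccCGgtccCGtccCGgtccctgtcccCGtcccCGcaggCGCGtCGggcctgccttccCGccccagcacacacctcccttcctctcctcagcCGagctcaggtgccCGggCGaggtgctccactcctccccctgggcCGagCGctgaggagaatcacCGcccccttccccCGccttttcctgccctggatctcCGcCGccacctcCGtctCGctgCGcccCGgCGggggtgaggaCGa

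The Mab21l2 window held 14 CpG and was 49.7% G or C, the Nbea window 36 CpG and 75%, and the Lrba window 27 CpG and 71.7%. Both host promoters are thus CpG-rich: 93.8% of 32851 promoter windows in the table held fewer CpG than that of Nbea, 84.5% fewer than that of Lrba and 63.7% fewer than that of Mab21l2. An island of 77 reads covered the Mab21l2 window. The island nearest to the Nbea start site lay 249 kb from it and outside the gene, and the one nearest to the Lrba start site 41.6 kb from it. Over all windows 7% were overlapped by an island, against 18.9% of the 5097 windows with at least 27 CpG and 8.93% of the 1613 windows with a CpG number within 1 of that of Mab21l2. Windows without an island are thus the common case at every CpG content compared.

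Short motifs were searched on both strands of the windows. The E-box CANNTG, the core bound by bHLH factors, had 2 matches in each host window and 0 in that of Mab21l2, and 72.3% of all windows held it. CAGATG and CAGCTG, forms that CANNTG includes, had 0 matches in the 3 windows and were held by 17.2% and 16.3% of all windows. The Sp1 site GGGCGG had 2 matches in each host window and 0 in that of Mab21l2 (35.7% of all windows). The Mab21l2 window held 1 TATAAA, at position -192 from the start site (13.6% of all windows), and 1 TTGGC, the core of an NF-I site (46.7%); neither host window held one. The Gli site TGGGTGGTC (0.253% of windows), the AP-1 site TGANTCA (7.81%) and the CRE TGACGTCA (1.79%) were in none of the 3. The shares are over all windows and were not matched for G or C content, in which the 3 windows differ. A match describes the letters and shows no binding.

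The largest island of either locus lay at Mab21l1. It ran from 55771679 to 55783278, was 11600 bp wide and held 354 reads (318 to 393). It covered 769 bases of the gene at its lower-coordinate end and went on into the Nbea interior on that side. A further island of 117 reads (96.8 to 140.2) from 55785879 to 55790278 lay 0.592 kb from the higher-coordinate end of Mab21l1. The pair thus flanked the gene with a gap of 2.6 kb between them, and held 70.6% of all reads in islands of Nbea.

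At Mab21l2 the islands were narrower. The one over the gene ran from 86546879 to 86549678 (2800 bp, 77 reads, 60.8 to 96.2) and covered 1405 bases of it with its start site. The next lay 4.17 kb from the gene, from 86538679 to 86541878 (3200 bp, 92 reads, 74.2 to 113), and the first beyond the 5 kb limit lay 6.20 kb away (77 reads). Mab21l2 thus sat in a row of islands: 6 of them, from 86536079 to 86575278, followed each other with gaps of 0.8 to 7.8 kb. Their reads in the direction of Lrba transcription were 56, 92, 77, 77, 112 and 86. Within 20 kb there were 2 islands with 471 reads for Mab21l1 and 5 with 414 reads for Mab21l2.

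**Figure D1:**
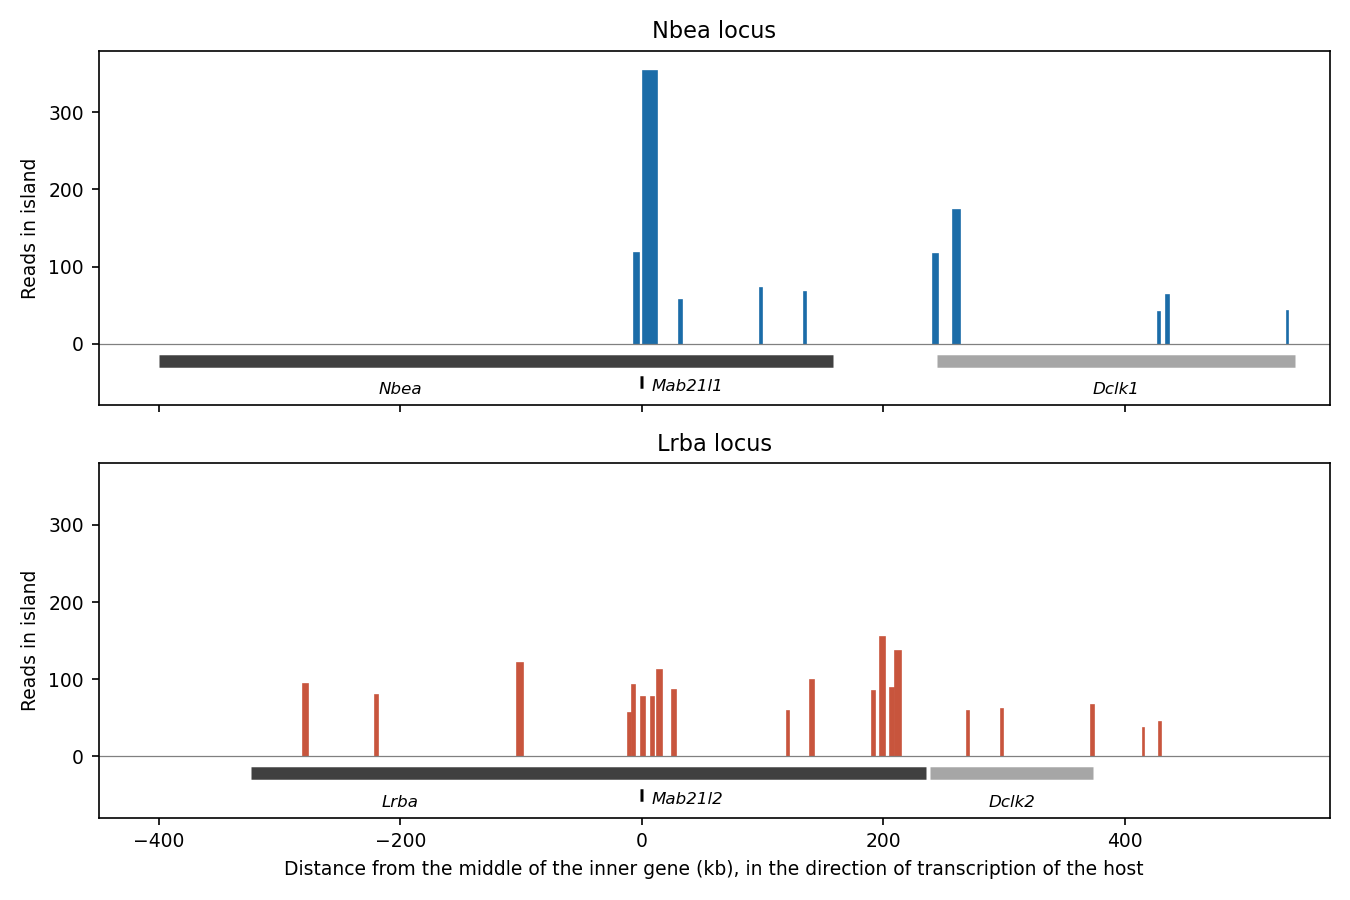
Reads in each Brg1 island (vertical axis) by distance in kb from the middle of the inner gene, in the direction of host transcription, for the Nbea locus (top) and the Lrba locus (bottom); bars are drawn at island width, and bars below the axis show the genes. The island of 354 reads stands at Mab21l1, with one of 117 reads just before the gene. The Nbea part before that pair is empty. The Lrba islands form a row around Mab21l2 and another towards Dclk2.

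Nbea held 3 islands away from Mab21l1, all between the inner gene and the far end of Nbea. In the direction of Nbea transcription they held 57 reads (29.8 kb from Mab21l1), 72 reads (96.4 kb) and 67 reads (133 kb). They were small beside the islands at the gene, 1600 to 2400 bp wide. The 398 kb from 5 kb outside the start of Nbea to 5 kb short of Mab21l1 held 0 islands, where 3 would be 0.753 per 100 kb. That limit lies above the 0.208 islands per 100 kb of all protein-coding genes of at least 300 kb together.

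Lrba held 13 islands away from Mab21l2. The 9 after the inner gene had 77, 112, 86, 59, 99, 85, 154, 88 and 137 reads, and the 4 before it 94, 79, 121 and 56. The last 4 of those after it formed the other row, from 86738079 to 86762078, with gaps of 1 to 3.6 kb, 190 to 209 kb from Mab21l2. It held the island with the most reads of Lrba, from 86744279 to 86749078 (154 reads, 131 to 180.3), and the one next to it in rank (137 reads, 115 to 162). The islands at Mab21l2 were therefore not those with the most reads in the host, unlike at Mab21l1. Of the gaps between neighbouring islands, 1 of 4 in Nbea was at most 10 kb, against 8 of 14 in Lrba.

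Set against the rest of its host, the zone of the inner gene with 5 kb on each side was dense in islands at both loci. It made up 2.25% of the Nbea locus and 2.15% of the Lrba locus, each taken with 5 kb around the host. At Mab21l1 it held 2 of 5 islands, or 15.7 per 100 kb, against 0.540 per 100 kb in the rest of Nbea. At Mab21l2 it held 2 of 15, or 16.3 per 100 kb, against 2.33 in the rest of Lrba. The rates at the inner genes were close to each other at this distance, and at 0 kb each gene had 1 island. At other distances the counts differed: Mab21l1 had 2 islands within 1, 10 or 20 kb, and Mab21l2 had 1, 4 and 5.

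These ratios, 29.0 for Mab21l1 and 7.005 for Mab21l2, rest on 2 islands each, and an island that touches a short zone from outside counts for it. With island midpoints, 1 island counted for each inner gene and the ratios were 10.9 and 3.25. In bases, islands covered 79.6% of the Mab21l1 zone against 2.13% of the rest of Nbea, and 29.7% of the Mab21l2 zone against 8.61% of the rest of Lrba. In each of these measures the inner zone was above the rest, by more at Mab21l1. With 20 kb on each side the ratios were closer, 8.19 for Mab21l1 and 6.24 for Mab21l2. Since the genes were chosen by these islands, the ratios are a description.

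**Figure D2:**
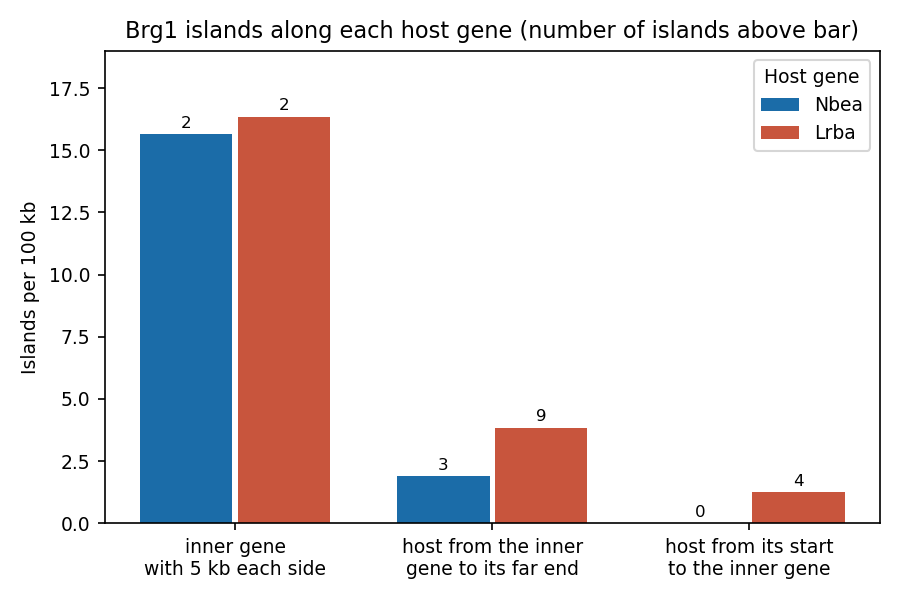
Islands per 100 kb (vertical axis) along Nbea and Lrba. The first part is the inner gene with 5 kb on each side. The others are the host from that zone to its far end and from its start to that zone. Numbers above the bars are island counts. The inner zones stand at 15.7 and 16.3 islands per 100 kb, above all other parts of the hosts.

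Outside the inner zones, islands lay more densely after the inner gene than before it in both hosts, a split added after the islands were seen. In Nbea there were 3 in 157 kb after Mab21l1 (1.91 per 100 kb) and 0 in 398 kb before it. In Lrba there were 9 in 234 kb after Mab21l2 (3.84 per 100 kb) and 4 in 323 kb before it (1.24 per 100 kb). The side after the inner gene is the one next to the doublecortin-like kinase gene. On the other side, the stretch around the host start without an island was 642 kb at Nbea and 1312 kb at Lrba. At Nbea it reached 249 kb outside the gene, and the rest of it lay inside Nbea. At Lrba it reached 1269 kb outside the gene and ended 41.6 kb after the Lrba start site. No background was computed for the length of such stretches.

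Islands went on into both kinase genes, of which Dclk1 is 296.8 kb long and Dclk2 134.8 kb. Over all protein-coding genes, 16.7% had an island in the gene or within 5 kb, and of those of at least 300 kb 51.7%. Dclk1, a microtubule-associated kinase gene of developing neurons, had 5 islands. Those nearest to Nbea held 116 reads (55538679 to 55542478, across the end of Dclk1) and 174 reads (55520479 to 55526078), and the 3 others 41 to 63. Dclk2 had 3, of 58, 61 and 67 reads, the last over its promoter. The protein-coding genes further out had none within 5 kb: Sohlh2 and Ccdc169 beyond Dclk1, Tm4sf1, Tm4sf4 and Wwtr1 on the start side of Nbea, Rps3a1, Sh3d19 and Prss48 on the start side of Lrba, and Cd1d1 and Kirrel beyond Dclk2.

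By island number Lrba stood near the top of the long genes. Among 557 protein-coding genes of at least 300 kb, 51.7% had an island and the median was 1. Only Gse1 with 22 and Nfia with 18 had more than the 15 of Lrba, so 0.539% of the long genes reached its number; Cacna2d1 and Tcf4 followed with 10 each. Nbea, with 5, shared rank 13 with 21 other genes, and 6.1% of the long genes had as many or more. Per 100 kb the hosts had 0.879 islands (Nbea, rank 34) and 2.64 (Lrba, rank 4), against a median of 0.0873. These genes are the ones most like the hosts in island number in 1 library, and they were chosen for that number alone.

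**Figure D3:**
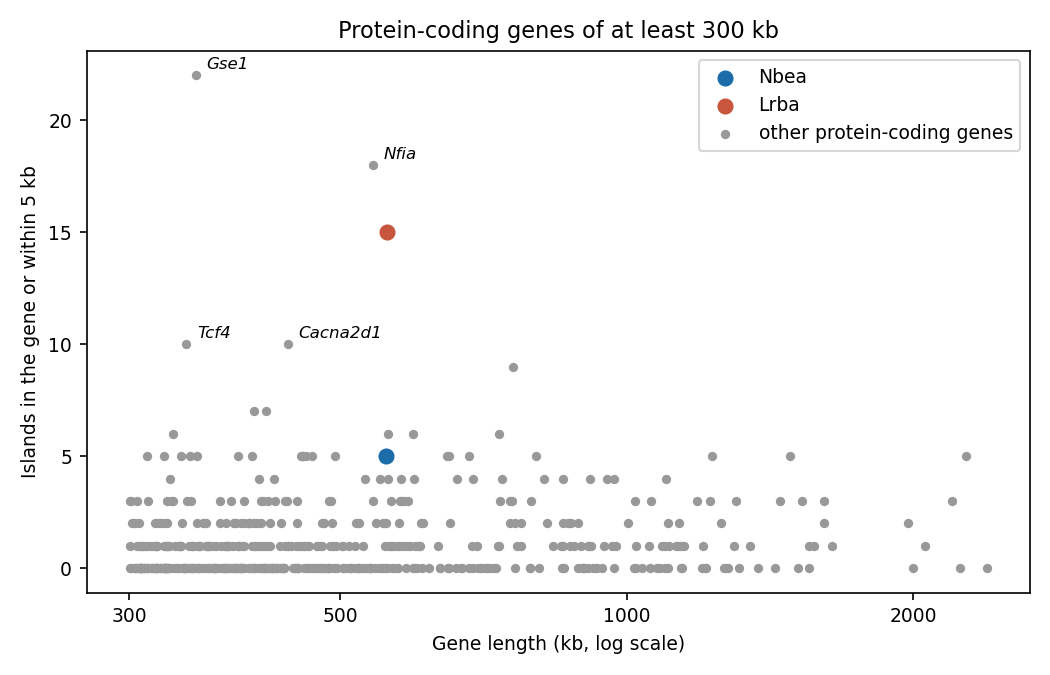
Islands in the gene or within 5 kb (vertical axis) by gene length in kb (log scale) for 557 protein-coding genes of at least 300 kb, with Nbea and Lrba in colour. Lrba, with 15 islands, lies below only Gse1 and Nfia, and Nbea, of nearly the same length as Lrba, has 5.

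Genes inside much longer ones seldom had islands. Of 358 protein-coding genes lying wholly inside a protein-coding gene at least 10 times as long, 7.26% had an island within 5 kb. Over all protein-coding genes the share was 16.7%, and the shares were not matched for gene length. Mab21l1 and Mab21l2 were among the 6 nested genes with 2, the most of any. Among protein-coding genes of at most 5 kb, nested or not, 0.715% had 2 or more. Within 20 kb no other nested gene reached the 5 islands of Mab21l2, which is 0.279% of them. By reads in the largest island Mab21l1 ranked 2 of the nested genes and Mab21l2 12. For Mab21l2 that was the island of 92 reads 4.17 kb away, since the one over the gene held 77. Some genes ranked above Mab21l2 shared 1 island of 108 reads. Rank 1 was Gm51877 in Sfi1, at an island of 20753 reads and an outlying 52.9 reads per 200 bp, and ranks 3 to 5 were Gm20346 in Anp32a (140 reads), H2aw in Trim17 (118) and Gm9997 in Nin (115).

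The large count at Mab21l1 went with width more than with density. Its island had 6.10 reads per 200 bp, below the median of 6.27 for all islands, and only 10 islands of the list, itself included, were at least as wide. By reads it ranked 24 of 5727. The other inner-zone islands had 5.32 (Mab21l1) and 5.75 and 5.50 reads per 200 bp (Mab21l2), and the medians were 5.70 over all islands of Nbea and 5.50 over those of Lrba.

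Set against islands of the same width, or the nearest widths where fewer than 20 shared it, 1 of 5 Nbea islands and 6 of 15 Lrba islands lay above the middle in density. The Nbea islands ranged from percentile 14.1 to 97.4, with a median of 37.5, and the Lrba islands from 9.04 to 78.7, with a median of 39.6. The highest was the narrow Nbea island of 72 reads over 1600 bp (9 reads per 200 bp), 96.4 kb from Mab21l1. Most islands of the loci were thus below the middle in density for their width, 3 of the 4 at the inner genes included (percentiles 38.1 and 37.5 at Mab21l1, 60.9 and 39.6 at Mab21l2). The 38.1 of the widest Mab21l1 island is its place among 21 islands within 3800 bp of its width, since only 1 other lay within 400 bp, and that 1 was denser. By plain read count 3 of 5 Nbea islands and 13 of 15 Lrba islands reached or passed the list median of 68.

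**Figure D4:**
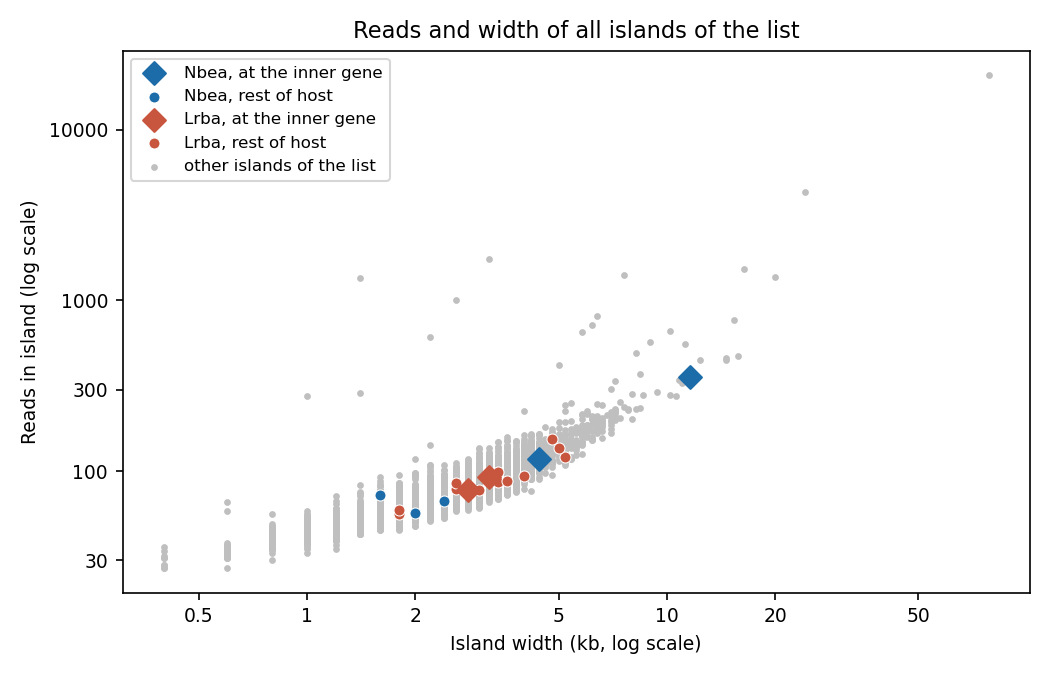
Reads per island (log scale) by island width in kb (log scale) for all 5727 islands, with those of Nbea and Lrba in colour and those at the inner genes as diamonds. The coloured islands lie in the band of the other islands, with the Mab21l1 island of 354 reads at its wide end.

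Within 5 kb, other genes of the families had islands about as often as protein-coding genes in general, 3 of 17 against 16.7%. Of 9 BEACH-domain genes 3 had one in the gene or within 5 kb, and besides the chosen Nbea and Lrba only Nbeal1 did (1 island, 43 reads). Lyst, whose human counterpart is mutated in Chediak-Higashi syndrome, Wdfy3, an autophagy adaptor gene, Wdfy4, Nbeal2, Nsmaf and Wdr81 had none. Of 12 genes of the Mab21 family 4 had one: the 2 chosen genes, Mief1, a gene for a mitochondrial dynamics protein (118 reads), and Tmem102 (54 reads). Mab21l3, Mab21l4, Cgas, Mb21d2, Itprip, Itpripl1, Itpripl2 and Mief2 had none. Having no island says only that no region there was called in this library, not that Brg1 is absent.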

How the data were processed

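The authors deposited 1 list of islands for the ChIP library, with chromosome, start, end and a whole number per island, which was taken as the read count because it grows with width and SICER writes such a column. The counts are not scaled for depth or width. SICER 1.1, Picard 1.127 and Bowtie 0.12.7 are listed, with mm10 and mm9 as builds, per the submitters' processing notes. The caller's settings, and whether it used the input, are not stated there. The list holds 472238 reads in islands of median width 2200 bp and median count 68; the depth of the library is unknown. Widths were multiples of 200 bp for 5724 of 5727 islands with the deposited end counted as inclusive, so starts and ends were moved by 1 to be 1-based. Coordinates were read as mm10: 7.001% of GRCm38.p6 promoter windows were touched with the list as deposited, and 0.980% and 0.938% with it moved by 100 kb up or down. Whether islands were called on mm9 and then converted was not settled.

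Genes came from RefSeq (GRCm38.p6), and start sites and strands from the RefSeq promoter table. Python 3.11.15, pandas 2.3.3 and scipy 1.17.1 were used, and the overlap code was tested on simulated islands. The genes and lists were chosen with earlier results of these data known. Named genes are the 4 members, the fixed families, 3 protein-coding neighbours on each side, and the 5 leading long and nested genes. Density is reads per 200 bp. The planned protein comparison was not run. Shares of genes or windows with an island are given as background. Alternatives were other distances, stricter read counts, other overlap rules, gene length limits and width groups.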

Additional observations from a re-analysis of the deposited data

How the results depend on the processing

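All alternatives were planned. The inner zone stayed above the rest of the host wherever a ratio could be had. Lrba kept 15 islands and Nbea 5 at every distance from 0 to 20 kb and with the stricter overlap rules; the 1464 islands with the most reads left 9 in Lrba and 2 in Nbea, and those at or above the median 3 in Nbea. The counts at the inner genes depended on the window. Mab21l1 had 1 island at 0 kb, by midpoint and with 50% of the island inside. Mab21l2 had 1 in these settings, at 1 kb and among those 1464 islands, 4 at 10 kb and 5 at 20 kb. The ratio of the inner zone to the rest of the host (29.0 for Mab21l1) was 50.9 at 0 kb and 78.7 at 1 kb. At 10 kb it was 15.97 and at 20 kb 8.19. With islands at or above the median it was 86.99, with the stricter overlap rules 10.9 and for covered bases 37.4. For reads it was 104.5, where all reads of an island touching the zone counted, also where part of the island lay outside the zone. For Mab21l2 (7.005) it was 18.1 at 0 kb, 9.53 at 1 kb, 8.95 at 10 kb and 6.24 at 20 kb. With islands at or above the median it was 8.28, and with the 1464 islands with the most reads 5.69. With the stricter overlap rules it was 3.25, for covered bases 3.44 and for reads 6.17. The ratios of the loci were thus closest in value at 20 kb among the distances, 8.19 and 6.24. No ratio could be had for Mab21l1 with those 1464 islands, which left no island in the rest of Nbea. Among long genes the host ranks moved by at most 1.5 times (Lrba 2 to 3, Nbea 10 to 17). Among nested genes Mab21l1 ranked 1 at 1 kb and 19 by density; Mab21l2 ranked 28 with hosts at least 5 times as long, 7 with 20 times, 5 by summed reads and 23 by density. With 0 kb, only the 2 chosen genes of the Mab21 family had an island. The place of the islands of the loci relative to the middle of the list turned with the measure: 7 of 20 were above it in density at the same width and 6 with widths within 400 bp, but 16 by plain reads among all islands. The cause of these shifts was not tested beyond what each setting changes by its construction. With 1 library, depth and spread between tumours limit every value.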

Other observations

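Part of each row of Lrba islands overlapped a long non-coding RNA gene of the annotation. Gm31677 (86531509 to 86551597, minus strand) contains Mab21l2 and was touched by 3 islands of 56, 92 and 77 reads. Gm52625 (86737166 to 86750260, minus strand) was touched by 2 islands, of 85 and 154 reads. The promoter window of neither was overlapped by an island. A further long non-coding RNA gene inside Lrba, Gm40083 (86353025 to 86362437), was touched by no island. Inside Nbea no island touched the non-coding genes Gm46804 and Gm31914, the second of which spans 133774 bp of the stretch without islands. No background share was computed for non-coding genes. These genes are the long non-coding RNA genes annotated inside the hosts, and they were taken up after their values were seen.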
